A study of Mus musculus with 10 samples.

Results

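The glutathione S-transferases described here are 10 genes of the cytosolic family, and they were taken by name. Gsta2, Gsta3 and Gsta4 belong to the alpha class, Gstm1, Gstm2, Gstm3, Gstm4 and Gstm6 to the mu class, Gstp1 to the pi class and Gstt1 to the theta class. The platform annotation gave these symbols alone to 15 of the 45037 non-control probe sets on the array, 10 of the 18193 genes it named in this way. All 10 genes had a probe set with a mean of at least 4 log2, and 13 of the 15 probe sets reached that level and were tested.

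Liver RNA came from 10 female mice on a C57BL/6 background, aged 3 months, with 1 array per animal. The labels give 5 animals homozygous for human APOE3 and 5 homozygous for human APOE4, each put in place of the mouse Apoe gene and driven by the murine Apoe promoter. The lines are named B6.129P2-Apoetm2(APOE*3)Mae N8 and B6.129P2-Apoetm3(APOE*4)Mae N8. Both groups therefore lacked mouse apolipoprotein E and ate the same diet, in which milk fat supplied 41% of the energy and cholesterol was added at 2 g/kg, for 6 weeks by one label and 2 months by another. No animal with mouse Apoe and none on another diet was part of the comparison, which asks whether expression of these enzymes in liver differs between APOE4 and APOE3.

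Glutathione S-transferases join the tripeptide glutathione to electrophilic compounds, among them drugs, carcinogens and products of lipid peroxidation, so that these can be exported from the cell. Hepatocytes contain them in large amounts. The alpha and mu genes are known targets of the transcription factor Nrf2 (gene Nfe2l2), which binds antioxidant response elements, and several also respond to the xenobiotic receptor CAR. Related genes of a class lie in tandem and resemble each other closely, so a probe made for one can also take up RNA of its neighbour.

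By gene order in the RefSeq annotation of GRCm38.p6, Gstm6, Gstm3, Gstm2, Gstm1 and Gstm4 follow each other on chromosome 3 with no other protein-coding gene between them. Gsta2 and Gsta4 lie on chromosome 9, Gsta3 on chromosome 1, Gstt1 on chromosome 10 and Gstp1 on chromosome 19. RefSeq promoters were found for 9 of the 10 genes, and the first listed start of each was used; Gsta4 had no entry. The 250 bases upstream of that start are shown for 6 genes, 5′ to 3′ on the gene's strand. Gsta2 is shown for having the largest difference between genotypes, and Gstm6, Gstm3 and Gstm2 as neighbours that varied together. Gsta3 and Gstp1 are shown for a match to TGACNNNGC and to TGANTCA, sequences named next. Capitals mark matches on either strand to TGACNNNGC (the core of the antioxidant response element), TGANTCA (an AP-1 type element), GGGCGG (a GC box), CCAAT and TATAAA.
Gsta2: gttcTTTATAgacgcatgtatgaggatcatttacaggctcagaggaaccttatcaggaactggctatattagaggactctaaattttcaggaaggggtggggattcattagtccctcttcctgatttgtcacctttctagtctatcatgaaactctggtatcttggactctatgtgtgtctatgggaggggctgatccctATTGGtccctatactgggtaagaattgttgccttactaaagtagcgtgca
Gsta3: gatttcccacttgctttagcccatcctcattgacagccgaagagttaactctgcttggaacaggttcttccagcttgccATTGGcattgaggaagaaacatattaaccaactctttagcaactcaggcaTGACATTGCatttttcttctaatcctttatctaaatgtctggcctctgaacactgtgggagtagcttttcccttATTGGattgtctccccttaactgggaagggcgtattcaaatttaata
Gstp1: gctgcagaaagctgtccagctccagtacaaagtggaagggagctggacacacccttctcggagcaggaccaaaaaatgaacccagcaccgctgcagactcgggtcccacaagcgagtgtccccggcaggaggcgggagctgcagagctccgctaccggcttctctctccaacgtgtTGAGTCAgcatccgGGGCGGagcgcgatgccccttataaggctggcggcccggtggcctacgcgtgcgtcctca
Gstm6: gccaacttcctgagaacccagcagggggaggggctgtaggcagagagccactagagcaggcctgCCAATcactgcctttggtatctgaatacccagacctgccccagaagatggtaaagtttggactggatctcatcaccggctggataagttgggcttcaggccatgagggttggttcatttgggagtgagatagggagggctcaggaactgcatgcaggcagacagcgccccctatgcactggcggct
Gstm3: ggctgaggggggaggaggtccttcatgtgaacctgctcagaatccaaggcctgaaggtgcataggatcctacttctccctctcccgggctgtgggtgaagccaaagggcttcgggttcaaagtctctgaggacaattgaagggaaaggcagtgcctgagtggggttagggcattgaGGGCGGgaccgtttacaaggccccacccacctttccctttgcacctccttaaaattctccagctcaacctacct
Gstm2: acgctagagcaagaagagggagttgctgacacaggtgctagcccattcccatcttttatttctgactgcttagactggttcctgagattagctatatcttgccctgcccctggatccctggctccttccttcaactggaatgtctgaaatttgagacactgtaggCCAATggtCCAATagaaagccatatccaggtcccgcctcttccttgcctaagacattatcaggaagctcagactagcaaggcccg
These stretches are chr9:78347146-78347395 on the minus strand (Gsta2), chr1:21240335-21240584 on the plus strand (Gsta3) and chr19:4037913-4038162 on the minus strand (Gstp1). The mu class stretches are chr3:107953467-107953716 (Gstm6), chr3:107969175-107969424 (Gstm3) and chr3:107986421-107986670 (Gstm2), all on the minus strand.

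Among the 9 promoters, TGACNNNGC occurred in Gsta3 alone, as TGACATTGC from 121 to 113 bases upstream of the start, while 10.2% of all 32851 promoter stretches of the same length held it. TGANTCA occurred in Gstp1 alone, as TGAGTCA from 74 to 68 bases upstream, and in 6.75% of all stretches. A CCAAT match was found in 7 of the 9 and in 33.8% of all stretches. GGGCGG was found in 3 of the 9 (Gstm3, Gstm4 and Gstp1) against 32.7% of all. TATAAA was found in 1 of the 9, Gsta2, against 12.4% of all, and its match lay 246 to 241 bases upstream. The CCAAT and GGGCGG matches of Gstm4 overlapped. The mu promoters resembled each other little: over the 10 pairs, 46.8% to 52.8% of aligned positions were identical. For comparison, Gstp1 and its neighbour Gstp2 shared 78.5%, and Gsta2 and Gsta1 shared 71.7%. A match describes the letters only.

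None of the 10 transferase genes passed the adjusted threshold between genotypes. In limma, 0 of the 13 tested probe sets had an adjusted p under 0.05, where 0.0815% of all 14732 tested probe sets did (0.0339% higher and 0.0475% lower in APOE4). Likewise 0 had an unadjusted p under 0.05, where 8.00% of all did. The groups overlapped in every one of the 13 probe sets, against 2.02% of all tested probe sets whose groups did not. By 1 probe set per gene, 5 genes were above 0 and 5 below, with a median log2 difference (APOE4 minus APOE3) of -0.0030 beside 0.047 over all tested probe sets. Gstp1 turned from above to below 0 with quantile normalization and Gstm1 from below to above 0 with arrays centred. For 9 of the 13 probe sets the 95% interval of the difference lay within 1.5-fold either way, and for 11 within 2-fold. The 2 that reached beyond 2-fold were those of Gsta2 and Gstm3. Fewer cells of a type and less RNA per cell cannot be told apart in these bulk samples.

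**Figure D1:**
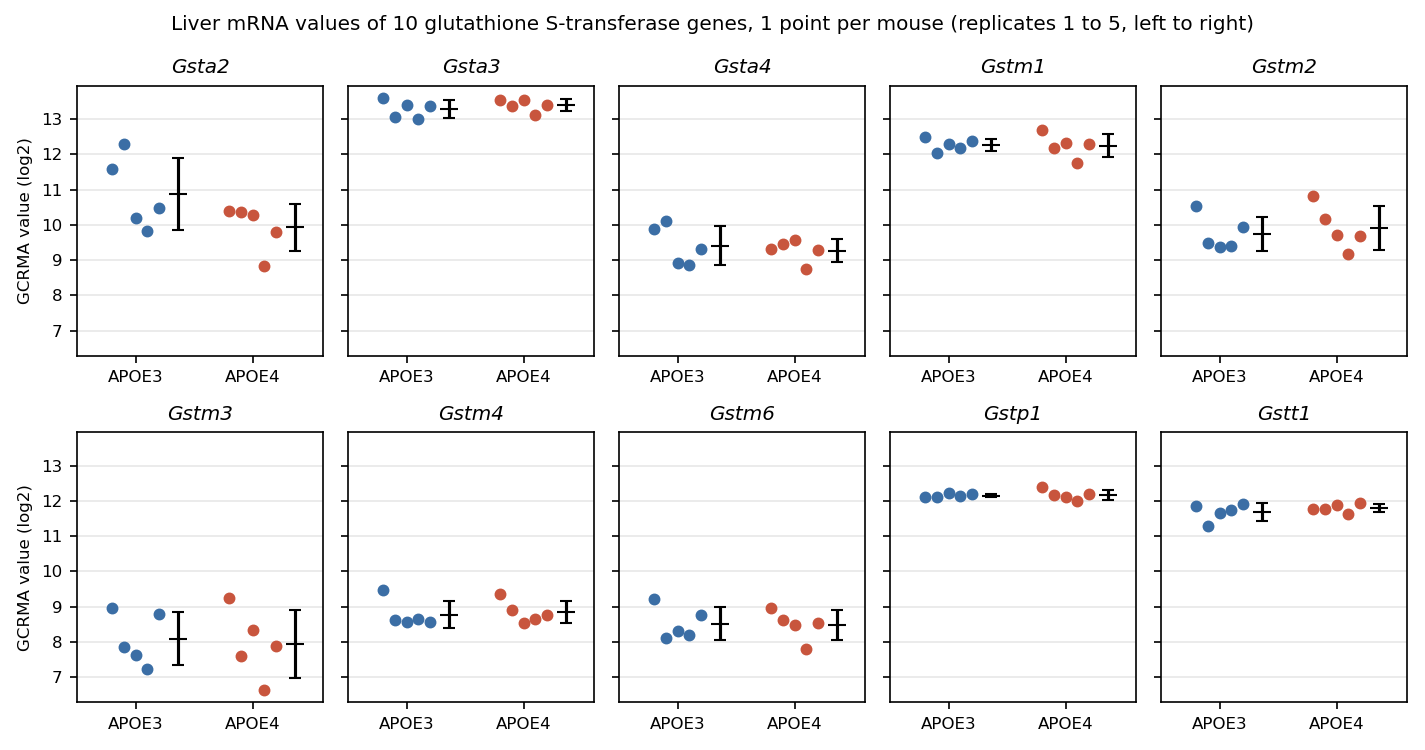
GCRMA values (log2) of the 10 genes, 1 point per mouse, with the mean and SD of each genotype (n = 5) as a bar beside the points and 1 axis range for all panels. APOE3 and APOE4 mice overlap in all 10 panels, and Gsta2 and Gstm3 spread most between mice.

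**Figure D2:**
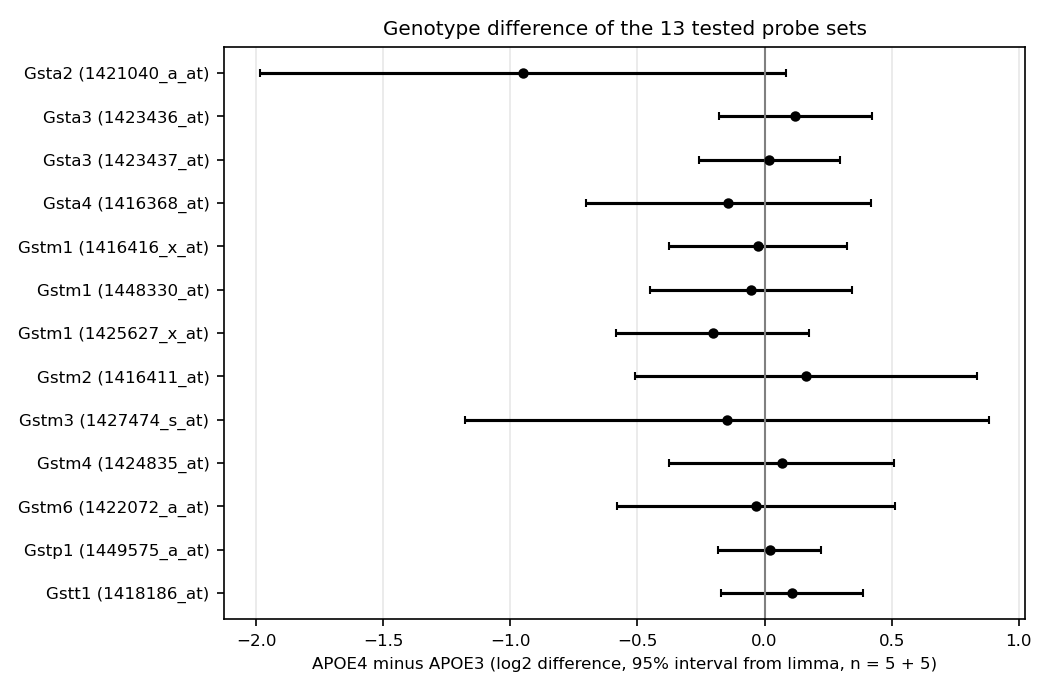
Log2 difference (APOE4 minus APOE3) of the 13 tested probe sets, with the 95% interval from limma as a bar (5 mice of each genotype). All 13 intervals include 0, and those of Gsta2 (-1.98 to 0.08) and Gstm3 (-1.18 to 0.88) are the widest.

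In the alpha class, Gsta2 encodes a subunit that conjugates and also reduces peroxides, and the mouse alpha genes of this kind rise with antioxidants and planar xenobiotics. Its log2 values were 11.59, 12.30, 10.20, 9.83 and 10.48 in APOE3 replicates 1 to 5. In APOE4 replicates 1 to 5 they were 10.39, 10.36, 10.27, 8.83 and 9.80. APOE3 replicates 1 and 2 stood above all other animals and APOE4 replicate 4 below them, while the other 7 shared the range between. The mean was 10.88 ± 1.03 log2 in APOE3 and 9.93 ± 0.66 in APOE4 (SD, n = 5 each), a log2 difference of -0.95 (SE 0.47, 95% interval -1.98 to 0.08). This was the largest difference among the 10 genes, and it did not pass (unadjusted p = 0.0681, adjusted p = 0.642 in limma). Leaving out APOE3 replicate 2 gave -0.59, leaving out APOE3 replicate 4 gave -1.21 (unadjusted p = 0.0247, limma's adjusted p = 0.622), and leaving out APOE3 replicate 3 gave -1.12 (unadjusted p = 0.0472, limma's adjusted p = 0.720). With the replicate number as a block the unadjusted p was 0.0073 and limma's adjusted p 0.50. Between the highest and the lowest animal Gsta2 spanned 11.1-fold, and its SD within a genotype was above that of 98.6% of tested probe sets.

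A further probe set was given 3 symbols by the annotation, Gsta2 among them, and so stands for no single gene. Its log2 values were 10.37, 10.95, 8.03, 7.61 and 8.67 in APOE3 replicates 1 to 5 and 8.97, 8.73, 8.46, 5.95 and 7.74 in APOE4 replicates 1 to 5. The order of the animals was close to that of the Gsta2 probe set (Pearson r = 0.98, rho = 0.95, n = 10, permutation p = 1e-05 for r, the smallest that the resamples can give, and 9e-05 for rho, adjusted 4.5e-05 and 0.00045 over 9 pairs of probe sets). Without the 2 animals farthest from the median r was 0.97. It differed between genotypes by -1.16 log2 (SE 0.73, adjusted p = 0.707 in limma), again without passing.

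Gsta4 conjugates hydroxynonenal and related aldehydes that arise from oxidised lipids. Its log2 values were 9.88, 10.10, 8.92, 8.85 and 9.32 in APOE3 replicates 1 to 5 and 9.32, 9.45, 9.56, 8.74 and 9.30 in APOE4 replicates 1 to 5. The same APOE3 animals as for Gsta2, replicates 1 and 2, were highest, and APOE4 replicate 4 was lowest of the 10. The means of 9.42 ± 0.56 and 9.27 ± 0.32 log2 (SD, n = 5 each) differed by -0.14 (SE 0.26, 95% interval -0.70 to 0.42, adjusted p = 0.913 in limma). Leaving out APOE3 replicate 2 moved it to 0.03.

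Gsta3, the alpha enzyme that protects mouse liver against aflatoxin epoxide, varied less than Gsta2 and Gsta4. It ranged from 12.999 to 13.60 log2 in APOE3 and from 13.11 to 13.55 in APOE4, a 1.51-fold span over all 10 animals. Its SD within a genotype was above that of 45.7% of tested probe sets. The log2 difference was 0.12 (SE 0.14, adjusted p = 0.846 in limma) by this probe set and 0.02 (SE 0.13, adjusted p = 0.979) by its second one. Leaving out 1 animal moved the first from 0.049 (without APOE3 replicate 4) to 0.199 (without APOE3 replicate 1). Those probe sets ranked the animals alike (Pearson r = 0.92, rho = 0.93, n = 10, permutation p = 0.00024 and 0.00036, adjusted 0.00036 and 0.00081, and r = 0.93 without 2 animals).

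In the mu class, Gstm1 is the predominant liver form. Its representative probe set was at 12.49, 12.03, 12.30, 12.19 and 12.37 log2 in APOE3 replicates 1 to 5 and at 12.69, 12.20, 12.32, 11.75 and 12.29 in APOE4 replicates 1 to 5. APOE4 held both the highest animal, replicate 1, and the lowest, replicate 4. The means were 12.28 ± 0.18 and 12.25 ± 0.34 log2 (SD, n = 5 each), a log2 difference of -0.03 (SE 0.16, 95% interval -0.38 to 0.33, adjusted p = 0.978 in limma). Its other tested probe sets differed by -0.05 (SE 0.18) and -0.20 (SE 0.17), the latter -0.045 without APOE4 replicate 4 and -0.304 without APOE4 replicate 1. The fourth, with 4 of 10 arrays under 4 log2, was too low to test (4.16 ± 0.27 in APOE3, 3.82 ± 0.35 in APOE4, SD, n = 5 each). All 4 varied together over the 10 animals, with r between 0.81 and 0.99 and rho between 0.79 and 0.95 over 6 pairs (adjusted permutation p up to 0.0106 for r and 0.00902 for rho, and r from 0.78 to 0.98 without 2 animals). For 2 of the 4, the representative among them, the identifier ends in _x_at, the array maker's mark for probes that also match other sequences. The correlations of Gstm1 with other genes given below use that representative.

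Gstm3, a mu gene often used to follow activators of CAR and Nrf2, varied most in the class. Its log2 values were 8.96, 7.86, 7.62, 7.22 and 8.78 in APOE3 replicates 1 to 5 and 9.25, 7.60, 8.33, 6.63 and 7.89 in APOE4 replicates 1 to 5. Replicate 1 was the highest in either genotype and replicate 4 the lowest, and replicate 5 stood near the top in APOE3 only. The span was 6.14-fold over the 10 animals, while the genotype means of 8.09 ± 0.75 and 7.94 ± 0.96 log2 (SD, n = 5 each) differed by -0.15 (SE 0.47, 95% interval -1.18 to 0.88, adjusted p = 0.952 in limma). Its interval runs from 2.26-fold lower to 1.84-fold higher in APOE4. This probe set ends in _s_at, the mark for probes shared by several transcripts. A second Gstm3 probe set was under 4 log2 on 9 of 10 arrays and untested, yet ordered the animals much alike (Pearson r = 0.89, rho = 0.87, n = 10, permutation p = 0.00032 and 0.0021, adjusted 0.00041 and 0.0028, and r = 0.88 without 2 animals).

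Gstm2, its neighbour, was at 10.52, 9.501, 9.39, 9.40 and 9.93 log2 in APOE3 replicates 1 to 5 and at 10.82, 10.17, 9.70, 9.19 and 9.68 in APOE4 replicates 1 to 5. Replicate 1 was again the highest of each genotype. The log2 difference was 0.16 (SE 0.31, 95% interval -0.51 to 0.84, adjusted p = 0.916 in limma). Gstm6 was at 9.21, 8.11, 8.31, 8.19 and 8.76 log2 in APOE3 replicates 1 to 5 and at 8.97, 8.62, 8.48, 7.80 and 8.54 in APOE4 replicates 1 to 5. It too had replicate 1 on top in both genotypes, and the log2 difference was -0.03 (SE 0.25, adjusted p = 0.980 in limma). Gstm4 was at 9.46 in APOE3 replicate 1 and between 8.56 and 8.66 in the other APOE3 animals, and at 9.35 in APOE4 replicate 1 and between 8.53 and 8.92 in the other APOE4 animals. Its log2 difference was 0.07 (SE 0.20, adjusted p = 0.947 in limma).

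The pi and theta genes had the smallest SD within a genotype of the 10 members. Gstp1, which in mouse liver is higher in males, ranged from 12.10 to 12.23 log2 in APOE3 and from 11.99 to 12.40 in APOE4. Its log2 difference was 0.02 (SE 0.092, 95% interval -0.18 to 0.22, adjusted p = 0.968 in limma), and its SD within a genotype was above that of only 7.63% of tested probe sets. Gstt1, which acts on small halogenated hydrocarbons, ranged from 11.28 to 11.92 log2 in APOE3 and from 11.64 to 11.93 in APOE4, with a log2 difference of 0.11 (SE 0.13, adjusted p = 0.855 in limma). Leaving out APOE3 replicate 2, its lowest animal, moved that to 0.0030. In contrast to Gsta3, Gstp1 and Gstt1, the SD of the other 7 genes was above the median of 0.231 log2 over all tested probe sets.

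The mu genes stood high or low together in the same animals. APOE3 replicate 1 was the highest of its genotype for 5 of 5 mu genes, and so was APOE4 replicate 1. APOE4 replicate 4 was the lowest of its genotype for 4 of 5, all but Gstm4, and the lowest of all 10 animals for 7 of the 10 members. Averaged over the 5 mu genes, APOE3 replicate 1 lay 0.65 log2 above its genotype mean and APOE4 replicate 1 lay 0.73 above, while APOE4 replicate 4 was at -0.68.

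**Figure D3:**
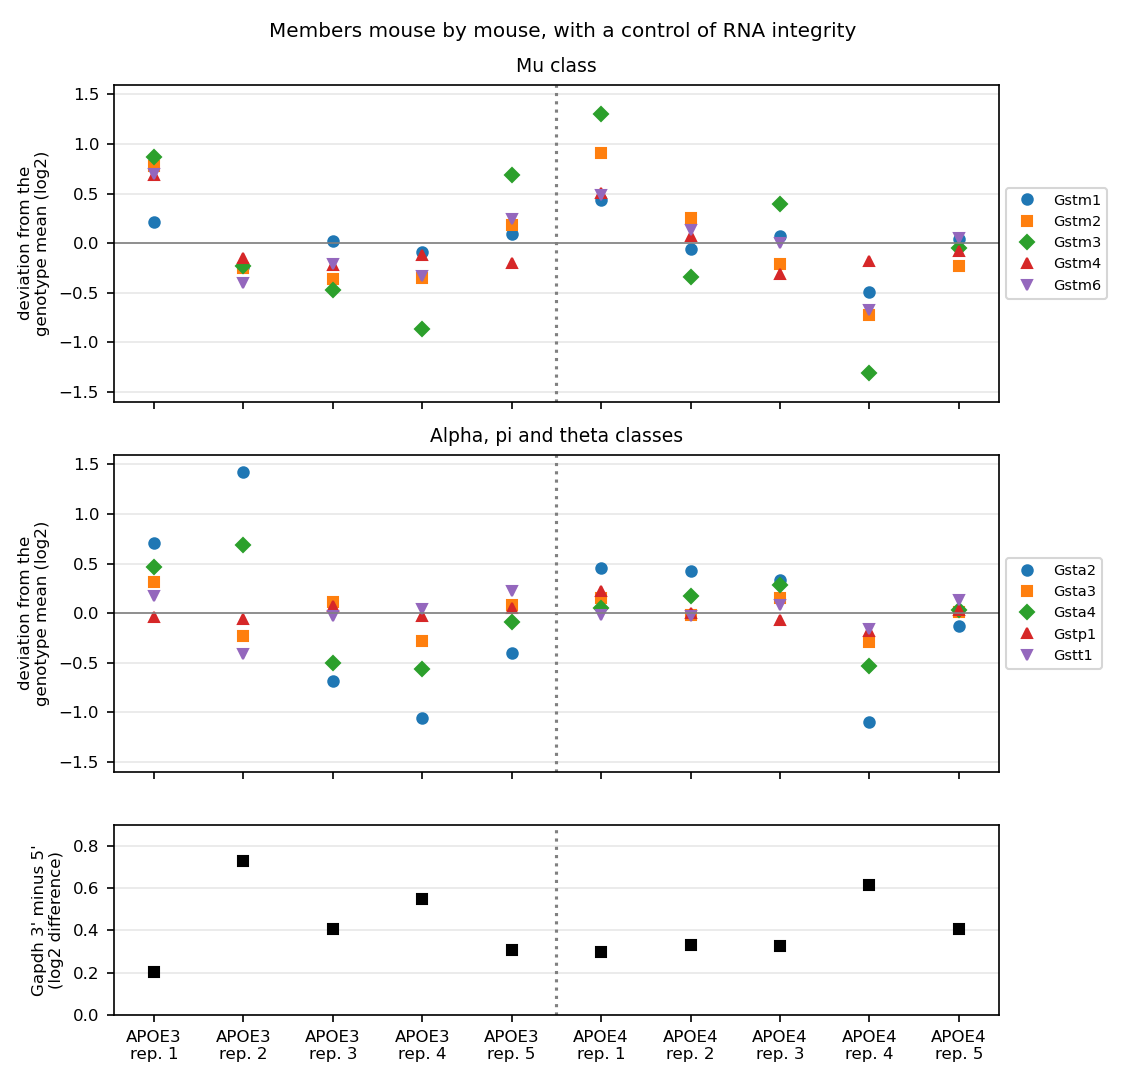
Deviation of each gene from its genotype mean (log2) in each of the 10 mice, for the mu class (top) and the other classes (middle), with the 3′ minus 5′ difference of the Gapdh control probe sets (log2, bottom). The mu genes lie above 0 in replicate 1 of both genotypes and below it in APOE4 replicate 4, and Gsta2 and Gsta4 are highest in APOE3 replicate 2, where the mu genes lie below 0.

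Of the 45 pairs of members, 13 were correlated over the 10 animals by Pearson's r (permutation test, adjusted over the 45 pairs) and 4 by Spearman's rho. The share of pairs of other genes that would pass was not computed, so whether these counts are particular to the family was not tested. Among the 10 mu pairs 8 passed, all positive, with r from 0.58 to 0.91 over the 10. Gstm2 with Gstm6 gave r = 0.91 and rho = 0.92 (n = 10, adjusted permutation p = 0.0058 and 0.016). Gstm1 with Gstm3 gave r = 0.89 and rho = 0.90 (adjusted permutation p = 0.0058 and 0.016), and Gstm1 with Gstm6 gave r = 0.89 and rho = 0.88 (adjusted permutation p = 0.0079 and 0.022). Gstm4 with Gstm2 gave r = 0.86 and rho = 0.54 (adjusted permutation p = 0.020 and 0.22), and r = 0.48 without 2 animals. Gstm4 with Gstm1 gave r = 0.59 and rho = 0.20 (adjusted permutation p = 0.17 and 0.69).

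In the alpha class 1 of the 3 pairs passed. Gsta2 and Gsta4 varied together (r = 0.90, rho = 0.85, n = 10, adjusted permutation p = 0.0058 and 0.033), with r = 0.98 among APOE3 animals and 0.93 among APOE4 animals. Neither passed with Gsta3: Gsta2 gave r = 0.12 and rho = 0.20 (adjusted permutation p = 0.77 and 0.69), and Gsta4 gave r = 0.29 and rho = 0.32 (adjusted permutation p = 0.48 and 0.50). Those values were 0.59 and 0.82 without 2 animals. Gsta3 instead passed with Gstm6 (r = 0.81), Gstm1 (r = 0.76) and Gstm3 (r = 0.74), with adjusted permutation p = 0.023, 0.032 and 0.049, and none of these pairs passed by rho (0.75, 0.81 and 0.75, adjusted permutation p = 0.079, 0.055 and 0.079). Gstm1 with Gstp1 gave r = 0.82 and rho = 0.62 (adjusted permutation p = 0.035 and 0.18), but r = 0.21 without APOE4 replicates 1 and 4. Gsta2 and Gstt1 had the lowest value, r = -0.40 with rho = 0.0061 (adjusted permutation p = 0.37 and 1.00).

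How far r changed when animals were left out differed between the pairs. When the 2 animals farthest from the median of the first gene were left out, 0 of 45 pairs passed the exact permutation test after adjustment (lowest adjusted p = 0.0759) and 14 had an unadjusted p under 0.05. With these 8 animals r was 0.88 for Gstm2 with Gstm6 and 0.85 for Gstm1 with Gstm6, close to the values over 10. It was 0.89, 0.84 and 0.84 for Gsta3 with Gstm1, Gstm3 and Gstm6, above the values over 10. It was lower for Gstm1 with Gstm3 (0.72), Gsta2 with Gsta4 (0.77) and Gstm4 with Gstm6 (0.17, against 0.75 over 10). Without APOE4 replicate 1 the number of pairs that passed was 5, and without APOE4 replicate 4 it was 8. With genotype means subtracted 10 pairs passed. Probes that take up RNA of a neighbouring gene would link such pairs too, and their part was not tested.

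**Figure D4:**
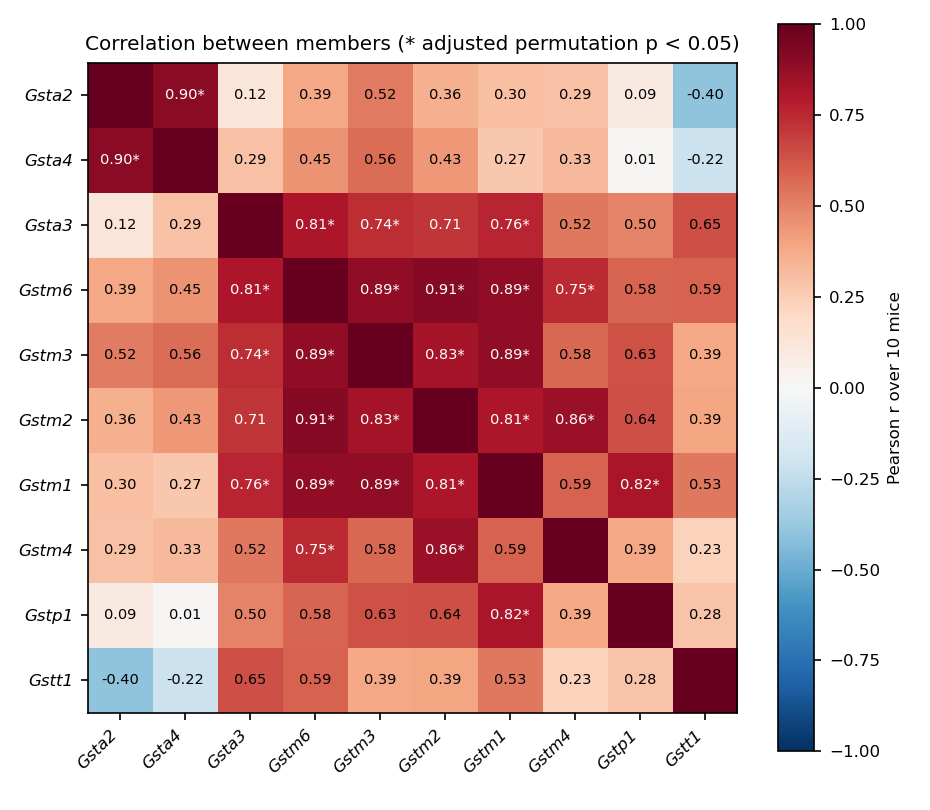
Pearson r between the representative probe sets of the 10 genes over the 10 mice, with colour and number both giving r and a star for an adjusted permutation p under 0.05. Stars mark 13 of the 45 pairs, 8 of them between mu genes, and r is lowest for Gsta2 with Gstt1 (-0.40).

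Controls of RNA integrity were read beside these values. The 3′ minus 5′ difference of the Gapdh control probe sets ran from 0.203 log2 in APOE3 replicate 1 to 0.729 in APOE3 replicate 2, and it was 0.617 in APOE4 replicate 4 and 0.551 in APOE3 replicate 4. In APOE4 replicate 1, which had the highest mean deviation of the mu genes, it was 0.299, the lowest in APOE4. APOE4 replicates 2 and 3 were near that, at 0.331 and 0.324. APOE3 replicates 1 and 5, next in mean deviation of the mu genes (0.65 and 0.20 log2), were at 0.203 and 0.308. The Gapdh difference did not separate the genotypes (0.439 ± 0.206 in APOE3, 0.396 ± 0.130 in APOE4, SD, n = 5 each, exact permutation p = 0.73, two-sided). Among 100 relations of the 10 genes with 10 measures per animal, 2 passed by Pearson's r in the permutation test after adjustment and 3 by Spearman's rho, all of them with the Gapdh or Actb control. By r these were Gapdh with Gsta3 (r = -0.90, rho = -0.81, adjusted permutation p = 0.045 and 0.12, r = -0.88 without 2 animals) and with Gstm6 (r = -0.88, rho = -0.95, adjusted permutation p = 0.045 and 0.0090, r = -0.89 without 2 animals). Gstm1 passed by rho alone with Gapdh (r = -0.79, rho = -0.93, adjusted permutation p = 0.11 and 0.013, r = -0.62 without 2 animals). It did so with the 3′ minus 5′ difference of Actb too (r = -0.69, rho = -0.88, adjusted permutation p = 0.18 and 0.048, r = -0.38 without 2 animals). With Gapdh r was negative for all 10 genes, from -0.90 to -0.03, and 6 had an unadjusted permutation p under 0.05. Besides Gsta3, Gstm6 and Gstm1, these were Gstt1 (r = -0.82, rho = -0.71), Gstm2 (-0.74, -0.87) and Gstm3 (-0.70, -0.82). Without 2 animals r was -0.42, -0.76 and -0.81 in that order. The Actb difference had r = -0.81 with Gstt1, -0.75 with Gsta3 and -0.69 with Gstm6 (adjusted permutation p = 0.10, 0.14 and 0.18), and like that of Gapdh it was highest in APOE3 replicate 2. These were -0.41, -0.53 and -0.45 without APOE3 replicate 2 and APOE4 replicate 4. After the linear relation with the Gapdh measure was taken out, r over the 10 mu pairs ran from 0.32 to 0.82 with a median of 0.67, against a median of 0.85 before. Gsta2 with Gsta4 then gave r = 0.91, while Gsta3 gave 0.08 with Gstm6, 0.19 with Gstm1 and 0.35 with Gstm3. Gsta2 and Gsta4 had r = -0.03 and -0.13 with the Gapdh measure over 10 animals, and -0.84 and -0.88 without APOE3 replicate 2 and APOE4 replicate 4. Its part in the correlations was not tested beyond these values. With the Gapdh measure as a covariate in limma, 0 of the 13 probe sets passed and Gsta2 differed by -0.98 log2 (adjusted p = 0.657). Array medians lay between 2.61 and 2.67 log2 and were lower in APOE4 (2.62 ± 0.0091) than in APOE3 (2.65 ± 0.014, SD, n = 5 each, exact permutation p = 0.00794, two-sided), and the median passed with no member.

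Marker genes of other liver cells were read beside these results. Of 7 cholangiocyte markers on the array, 5 (Krt7, Krt19, Epcam, Cldn4 and Cftr) were under 4 log2 on all arrays, and the mean level of the list was 2.63 to 3.47 log2 in APOE3 and 2.69 to 3.15 in APOE4. Only 1 of the 7 was high enough to test, Krt23, at 5.89 ± 1.98 log2 in APOE3 and 4.55 ± 1.25 in APOE4 (SD, n = 5 each), a difference of -1.34 (SE 0.89, adjusted p = 0.724 in limma). Gsta2 lay below 0 as well. The list mean, in which the other 6 lay low, had its highest value in APOE3 replicate 2, as Gsta2 did (r = 0.73, rho = 0.62, permutation p = 0.0155 and 0.061, adjusted 0.141 and 0.359), but r was 0.016 without 2 animals. The mean of 13 Kupffer cell and macrophage markers, all above 4 log2 on some array, was 8.09 to 9.63 log2 in APOE3 and 7.92 to 8.85 in APOE4, highest in APOE3 replicate 4. For 8 endothelial markers it was 6.95 to 7.29 and 7.0005 to 7.36, and for 8 stellate cell markers, of which Des was under 4 on all arrays, 6.25 to 7.004 and 6.28 to 6.94. The 9 hepatocyte markers averaged 12.8 to 13.2 log2 in APOE3 and 12.9 to 13.1 in APOE4. Cdh5 (endothelial, -0.34, unadjusted p = 0.0133, adjusted p = 0.565 in limma) and Lrat (stellate, 0.75, unadjusted p = 0.0038, adjusted p = 0.452 in limma) had the smallest p, and 0 markers in these lists passed after adjustment. Of the 13 Kupffer markers 2 were positive and 11 negative, with a median of -0.21 log2. Besides Gsta2, Gsta4 had an unadjusted permutation p under 0.05 with the cholangiocyte mean (r = 0.70, but 0.095 without 2 animals). So did Gstp1 with the endothelial mean (r = -0.74, and -0.56 without 2 animals). The same held for Gstm4 with the hepatocyte mean (-0.70, and -0.54) and Gsta3 with the Kupffer mean (-0.66, and -0.82). None of these list means passed with any member after adjustment over the 100 relations, and their part in the results was not tested.

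Pericentral and periportal hepatocytes differ in their transferases, so zonal markers were read as well. Of 7 tested pericentral markers 0 passed the adjusted threshold in limma, 1 was positive and 6 negative, the median was -0.13 log2, and Oat alone had an unadjusted p under 0.05, at -0.37 log2. Slc1a2 differed by -0.48. Of 4 tested periportal markers 0 passed and all 4 were negative (median -0.085 log2), with the smallest p for Hal (-0.36) and Cyp2f2 (-0.07). The mean of the periportal list had r = -0.75 and rho = -0.71 with Gstm4 (adjusted permutation p = 0.12 and 0.22). Without 2 animals r was -0.62, and its part was not tested.

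Other transferase genes were read in the same way. Of 15 listed, 12 were on the array by a symbol of their own, 9 were tested and 0 passed in limma, with 4 positive, 5 negative and a median log2 difference of -0.0090. The smallest p belonged to Gstm7 (0.13, SE 0.11) and Gstt2 (-0.29, SE 0.29). Gstt4, Gsto2 and Hpgds were under 4 log2 on all 10 arrays. Among membrane-bound transferases and their relatives, 3 of 6 were tested and 0 passed. Mgst3, a microsomal enzyme, was at 7.65 ± 0.88 log2 in APOE3 and 8.32 ± 0.26 in APOE4 (SD, n = 5 each), a difference of 0.67 (SE 0.35, adjusted p = 0.668 in limma), and Mgst1 differed by -0.11 (SE 0.075).

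Genes that make and recycle glutathione lay mostly above 0 without passing: 0 of 7 tested passed in limma, 6 were positive and 1 negative. Their median log2 difference was 0.13, beside 0.047 over all tested probe sets. With quantile normalization again the median over all was 0.0043, and the list was not read with that setting. Gclc and Gclm, the catalytic and modifier subunits of the enzyme that starts glutathione synthesis, differed by 0.22 (SE 0.17, adjusted p = 0.763) and 0.17 (SE 0.11, adjusted p = 0.701). Gsr, which reduces oxidised glutathione, differed by 0.09 (SE 0.10). The transsulfuration gene Cth, at -0.28 (SE 0.22), was the negative one.

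Downstream of conjugation, 0 of 7 tested genes of glutathione breakdown passed in limma. Ggct, gamma-glutamylcyclotransferase, was at 7.99 ± 0.16 log2 in APOE3 and 8.42 ± 0.27 in APOE4 (SD, n = 5 each), a difference of 0.44 (SE 0.14, unadjusted p = 0.0092, adjusted p = 0.528), and Anpep differed by 0.23 (SE 0.16). Among peroxidases, glutaredoxins and related enzymes, 0 of 8 passed, with 5 positive and 3 negative. Glo1, the glyoxalase that uses glutathione to clear methylglyoxal, differed by 0.22 (SE 0.098, unadjusted p = 0.0461, adjusted p = 0.612 in limma) and Glrx2 by 0.16 (SE 0.094). Of 5 tested exporters of conjugates 0 passed, 1 was positive and 4 negative, with Abcc3 at -0.20 (SE 0.094) and Abcg2 at -0.13 (SE 0.23).

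Of 11 tested regulators of these genes 0 passed in limma, with 5 positive and 6 negative and a median log2 difference of -0.017. Nfe2l2, the gene of Nrf2, was at 9.49 ± 0.23 log2 in APOE3 and 9.56 ± 0.28 in APOE4 (SD, n = 5 each), a difference of 0.06 (SE 0.15, 95% interval -0.28 to 0.40). The related factor gene Nfe2l1 differed by 0.37 (SE 0.23) and Arnt by -0.11 (SE 0.098). Nqo1, the quinone reductase that serves as a standard Nrf2 target, differed by -0.40 (SE 0.20, 95% interval -0.84 to 0.03, adjusted p = 0.637 in limma). Over all these pathway lists Ggct and Glo1 alone had an unadjusted p under 0.05.

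**Figure D5:**
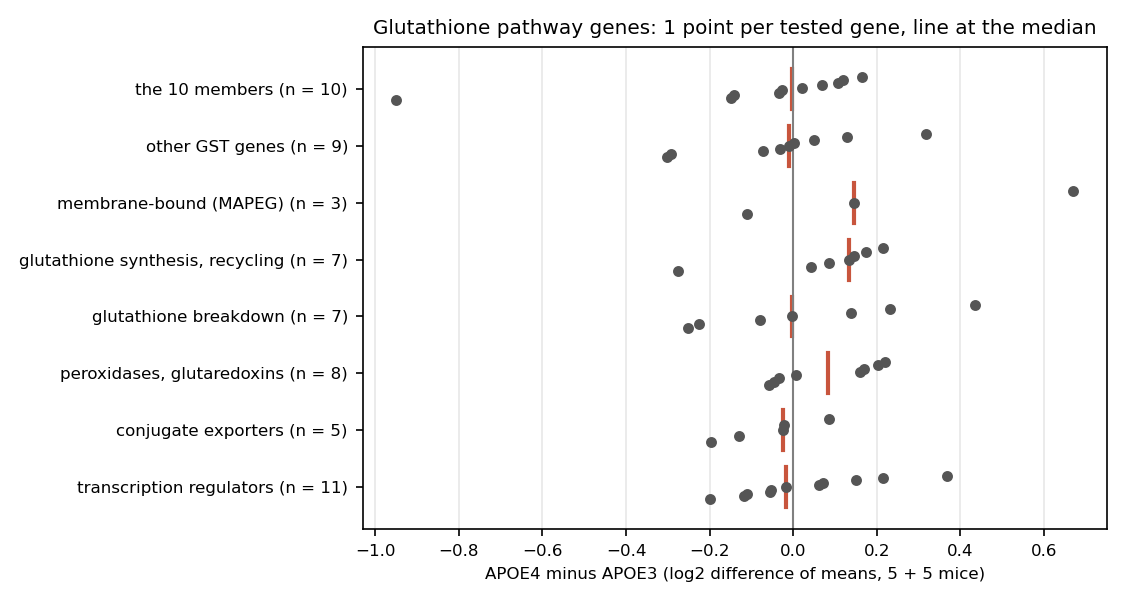
Log2 difference of means (APOE4 minus APOE3, 5 mice each) for the tested genes of 8 groups of the glutathione pathway, 1 point per gene and a line at each group's median. Group medians lie between -0.02 and 0.15, and Gsta2 at -0.95 is the point farthest from 0.

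For each member the genes outside the family with the closest pattern were sought among 8516 genes, by Pearson r over the 10 animals after genotype means were subtracted. With so many genes and 10 animals, high values arise readily, so they are given as a description. Tkt, the transketolase of the pentose phosphate pathway, came first for both Gstm2 (r = 0.96) and Gstm6 (r = 0.97). Hdac3, a histone deacetylase gene, came first for both Gsta2 (r = 0.94) and Gsta4 (r = 0.92). Gstm3 was nearest to Nol11 (r = 0.99) and Rrm2 (r = 0.97), Gstm1 to Flii (r = 0.94) and Dnpep (r = 0.94), and Gstm4 to Cdc34 (r = 0.97) and H2-Q10 (r = 0.97). Gsta3 was nearest to Ufsp1 (r = 0.96), Gstt1 to Kpna6 (r = 0.96) and Gstp1 to Tti1 (r = 0.93), while Abcc2, an exporter of glutathione conjugates, was the third for Gstp1 (r = 0.87).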

How the data were processed

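Total liver RNA of 10 mice was labelled with biotin from 2 µg and measured on 1 array each. The authors deposited log2 values, computed with GCRMA 2.12.1 under R 2.7.1 as the submitters' processing notes record. This method subtracts a background modelled from probe base composition, brings the arrays to a shared distribution and summarises the probes of a set. Undetected transcripts sit near a low floor, so values under 4 log2 have no sure scale. The build behind the array's design is not given in the sources used here, and promoters and gene order came from RefSeq tables of GRCm38.p6. The table had 0 columns of no sample. Nothing in the labels says that animals were pooled or shared, and p-values measure the spread between these animals.

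Groups came from the sample titles. After 64 control probe sets were left out, those with a mean of at least 4 over all arrays were compared by limma 3.58.1 (R 4.3.3; lmFit then eBayes, two-sided, without covariates) and adjusted by Benjamini-Hochberg over 14732 probe sets at a threshold of 0.05. Precision is limited by the 10 arrays. The labels give no batch. A member is represented by its probe set with the highest mean. Correlations were tested with 100000 resamples, or exactly for under 10 animals. In each list the 2 genes with the smallest p are named where none passed, besides Nfe2l2, Gclc, Gclm, Nqo1 and Gsr, and up to 3 nearest genes per member. The members and lists were chosen with earlier results of these data known. The fit was tested on simulated data. Alternatives were other filters (none, a mean of 6), eBayes with trend, array weights, 2 rescalings, a floor of 4, 1 probe set per gene, the replicate number as a block and each animal left out. Gapdh as a covariate and correlations without each animal were added after seeing the data. Symbols came from the platform annotation: 34958 probe sets had 1 symbol, 932 had several and 9211 had none. Plots used matplotlib 3.10.9 under Python 3.11.15.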

Additional observations from a re-analysis of the deposited data

Results flagged for a closer look

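Both results stand out because 1 animal lay far from the other 4 of its genotype, in 30 groups of 5 that were looked at; chance gives about 5% of groups such a gap. Gstm4 was at 9.46 log2 in APOE3 replicate 1, where the next APOE3 animal was at 8.66. The untested Gstm1 probe set with the lowest level was at 3.22 log2 in APOE4 replicate 4, where the next APOE4 animal was at 3.86, and both values are under 4, where the scale is unsure.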

How the results depend on the processing

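The count of member probe sets past the adjusted threshold was 0 in all alternative fits, with limma adjusted p of at least 0.50 for every member in each. The count with an unadjusted p under 0.05 was 0, except for 1, Gsta2, with the replicate number as a block, and it was 0 to 1 when 1 animal was left out (1, again Gsta2, without APOE3 replicate 3 or 4). The median difference of the members stayed between -0.0994 and 0.124 without 1 animal. Signs of differences near 0 turned in 22 of 257 values, none of them called. Gstp1 was at -0.0174 with array weights and -0.0139 with renewed quantile normalization. The lower Gsta3 probe set was at -0.0211 with that normalization and -0.0208 with the Gapdh covariate, and the representative Gstm1 probe set was at 0.0053 with arrays centred; the cause was not tested. With 1 animal left out the log2 difference ran from -0.283 to 0.0297 for Gsta4, -0.0627 to 0.358 for Gstm2, -0.48 to 0.18 for Gstm3, -0.0574 to 0.239 for Gstm4, -0.16 to 0.14 for Gstm6 and -0.0346 to 0.0662 for Gstp1. It ran from -0.0614 to 0.0885 for the lower Gsta3 probe set, and from -0.14 to 0.10 and -0.17 to 0.11 for 2 Gstm1 probe sets. The number of correlated pairs, 13, became 0 without the 2 farthest animals, with fewer animals tested, and 5 to 14 without 1 animal. Nothing in the labels says whether animals of the same number were paired. The deviations of animals with the same number correlated between -0.08 and 0.41, and 4 of 10 samples correlated best with their own number. With the block the SE was lower for every tested member probe set but that of Gstp1 (0.10, against 0.092 without it). For Gsta2 it was 0.26 against 0.47, and for Gstm2 0.16 against 0.31. For Gstm3 it was 0.23 against 0.47, for Gstm4 0.10 against 0.20 and for Gstt1 0.121 against 0.127. Whether animals of 1 number had something in common was not tested. The block moved the count of calls over all probe sets from 12 to 11. Over all probe sets 12 passed, and 5 with a mean of at least 6, 7 with 1 probe set per gene and 8 to 14 without 1 animal. Of the 1178 with an unadjusted p under 0.05, 815 were higher and 363 lower in APOE4; renewed quantile normalization gave 469 and 579, and centring 1171 and 254.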
